A study of Oryza sativa with 6 samples.

Results

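Nodal roots of the rice cultivars IR29 and Mulai were compared, with 1 library a side. Of the 38042 loci in the deposited table, 19963 had a scaled count of at least 10 in at least 1 of the nodal libraries and form the set described here. Mulai is labelled salinity tolerant and IR29 salinity sensitive. Messenger RNA had been sequenced by a strand-specific protocol from nodal roots, S-type lateral roots and L-type lateral roots of each cultivar, which gave 6 libraries in all. For all of them the labels give 12 h days at 30 °C and 70% humidity and 12 h nights at 25 °C and 75% humidity. No salt treatment, plant age or number of pooled plants is named, and the cultivars stand for tolerance and sensitivity by 1 line each. In the labels, the records of each cultivar point back to an earlier set of their own. A cultivar difference and a difference between those sets cannot be told apart.

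Nodal roots, also called crown roots, emerge from the nodes at the base of the rice stem and form the main axes of its fibrous root system. They bear both classes of laterals. The S-type is short and does not branch, whereas the L-type grows longer and carries laterals of its own. Sodium enters the rice plant through the root, and how much of it passes on to the shoot is a known part of salinity tolerance.

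The loci carry assembly identifiers without gene names, and 0 of the 38042 matched the available RefSeq gene table, so that no function, position or sequence can be given and the nodal identity of the tissue could not be checked with marker genes. A scaled count is a fragment count multiplied by 1 factor per library. The Mulai nodal library held 7904454 reads, worth 0.601 units each, and the IR29 nodal library 4253677 reads, worth 1.15 units each. A locus at the minimum of 10 was therefore supported by about 16.6 reads in Mulai and 8.67 in IR29. The lateral libraries held between 3891153 and 6246649 reads. Scaled counts also grow with transcript length, which is unknown here. Folds are taken within a locus, and where loci are ranked or put into classes by scaled count, this orders them by the reads behind them and not by transcript level. At the lower edge of the set, 523 loci had their larger nodal value between 10 and 12, and 605 loci just outside it had theirs between 8 and 10. A further 11082 loci had no read in either nodal library.

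Most loci had similar levels in the nodal roots of both cultivars. The fold was taken as the IR29 minus Mulai difference of log2(scaled count + 1). Its median was -0.02, with quartiles at -0.46 and 0.33, and 15648 of the 19963 loci (78.4%) lay within 2-fold. At least 2-fold lower in IR29 were 2752 loci (13.8%), and at least 2-fold higher were 1563 (7.83%). At least 4-fold lower were 1298 (6.5%) and higher 697 (3.49%). With 1 library a side these differences have no replicate check and no test, and as the percentages describe the whole set, they are also its background. In whole roots, fewer cells of a type and less RNA per cell cannot be told apart.

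**Figure D1:**
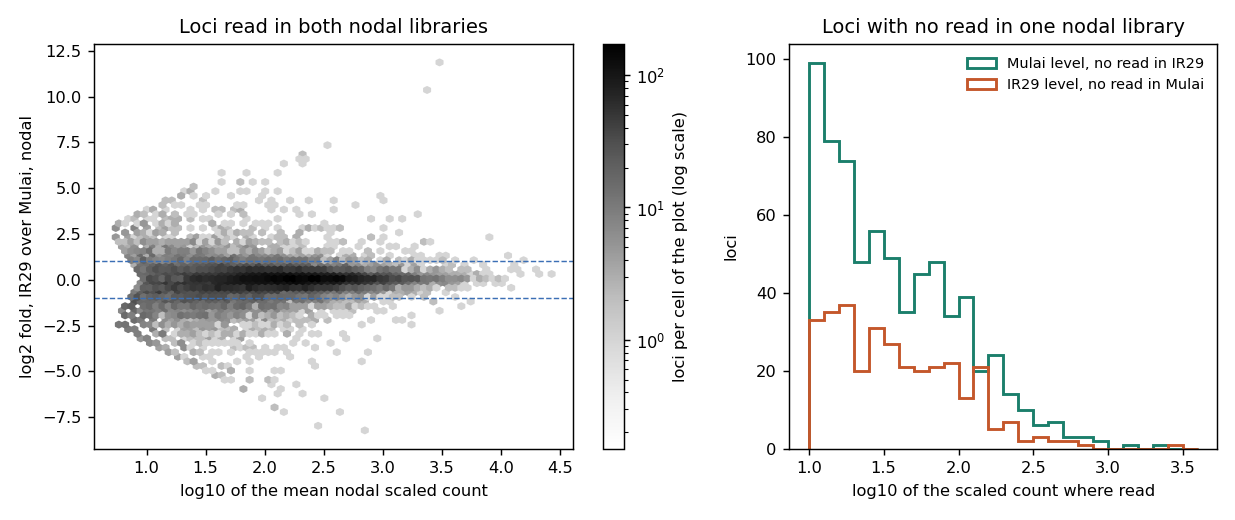
Left, the log2 fold of IR29 over Mulai (vertical axis) against log10 of the mean nodal scaled count (horizontal axis) for the 18942 loci read in both nodal libraries. Shading gives the number of loci on a log scale and dashed lines mark 2-fold. Right, the log10 scaled count in the library that read it, for the 697 loci with no read in IR29 and the 324 with no read in Mulai. The folds narrow toward high counts, and both groups of unread loci thin out toward high counts.

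The 2-fold loci were divided by how well they were read. No read in IR29 nodal roots had 697 loci (3.49% of the set), and no read in Mulai nodal roots had 324 (1.62%). Between 1 and 9 reads in at least 1 nodal library had 1718 loci, of which 915 fell below Mulai by 2-fold or more in IR29 and 324 exceeded it by as much. At least 10 reads in both had 17224 loci, of which 1140 (6.62%) lay at least 2-fold below and 915 (5.31%) above Mulai in IR29. These classes rest on the reads themselves, and a locus that is low in IR29 falls into a class of few IR29 reads for that reason, so that the direction within those classes is set by the division. At 4-fold, loci with at least 10 reads in both were even, with 176 lower and 178 higher. A minimum of 10 reads is not the same level in both libraries. It amounts to 6.01 units in Mulai and 11.5 units in IR29, so that a locus falls short of it more readily in IR29. With the Mulai nodal reads thinned to the IR29 total of 4253677 in a single random draw, 2809 loci were at least 2-fold lower and 1635 higher. The cause of the excess of lower loci was not tested.

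Counting error was set against each fold as an exact 95% binomial interval of the ratio of the 2 libraries. It covers counting error only, not differences between plants or preparations. Over all 19963 loci, 9973 intervals (49.96%) excluded equality and 2302 (11.5%) lay wholly beyond 2-fold. Of the loci past 2-fold, which were chosen on the same values and had to depart from equality, the interval lay wholly beyond 2-fold for 1455 of the 2752 lower (52.9%) and 847 of the 1563 higher loci (54.2%). For the remaining loci past 2-fold, a true ratio under 2-fold lies within counting error.

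Spread and direction changed with the level. Among loci read in both libraries with a mean nodal count from 20 to 50, 17.5% were below Mulai by 2-fold or more in IR29 and 8.62% above it. From 200 to 500 the shares were 3.63% and 2.86%. From 1000 to 5000 they were 1.74% and 4.10% of 805 loci, so that higher loci outnumbered lower ones (33 against 14). For the 44 loci at 5000 or more, the median fold was 0.23, with quartiles at 0.05 and 0.47. The spread of the fold, taken from its interquartile range as a standard deviation, fell from 0.79 log2 units at 20 to 50 through 0.37 at 200 to 500 to 0.30 at 1000 to 5000. The median standard deviation expected from counting alone was 0.35, 0.11 and 0.05 log2 units in the same classes. The spread was 2.25 times the counting value in the first of these and 5.94 times in the last.

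**Figure D2:**
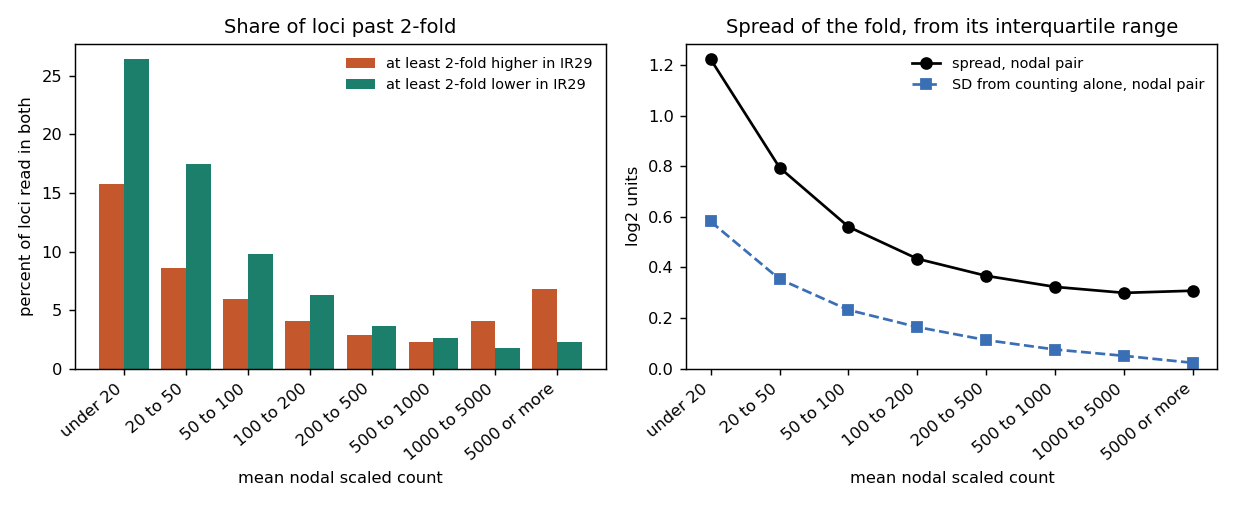
Loci read in both nodal libraries, in 8 classes of mean nodal scaled count (horizontal axes). Left, bars give the percent of loci at least 2-fold higher or lower in IR29. Right, the spread of the log2 fold and the standard deviation expected from counting alone, both in log2 units. Lower loci outnumber higher ones up to a mean of 1000 and the order turns above it, and the spread stays above the counting value in every class.

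The loci with the largest scaled counts were largely common to both cultivars. Of the 100 largest in each nodal library 77 were shared, and of the 1000 largest 852 (85.2%). Among the 1148 loci in either list of 1000, 56 were higher and 39 lower in IR29 by 2-fold or more. In the whole set of 19963 loci, 1563 (7.83%) were higher and 2752 (13.8%) lower by as much.

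Loci with no read in one cultivar's nodal roots formed a group of their own. The 697 loci with no read in IR29 had Mulai nodal values between 10.2 and 2330, with a median of 30.7. Values of at least 50 were seen for 257, at least 100 for 130 and at least 500 for 10. With 3 reads as the limit that a count of 0 allows (3.46 units in IR29), 237 of them were at least 16-fold lower in IR29. The 324 loci with no read in Mulai had IR29 nodal values between 10.4 and 3151, with a median of 33.4, and 120, 57 and 4 reached these levels. Against 3 reads in the deeper Mulai library (1.80 units), 182 were at least 16-fold higher in IR29.

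Most of these loci were also unread in the laterals of the same cultivar, which were separate libraries. Of the 697 loci, 583 (83.6%) had no read in the S-type or the L-type library of IR29, against 842 (4.22%) of the whole set. At least 10 in all 3 Mulai libraries had 496 (71.2%), against 83.0% of the whole set. Of the 324 loci, 273 (84.3%) had no read in either Mulai lateral library, against 365 (1.83%) of the whole set, and 227 (70.1%) had at least 10 in all 3 IR29 libraries, against 77.1%. By the rule of the set, each unread locus had at least 10 in the nodal roots of the other cultivar. The nodal condition was thus met beforehand, and the shares for all 3 libraries are not like for like with the whole set. The medians over the 697 loci were 33.8 in the Mulai S-type and 32.5 in the Mulai L-type library, close to the nodal median. In both IR29 lateral libraries the median was 0.

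The exceptions were loci that the cultivar did read in its laterals. In IR29, 114 of the 697 had a read in at least 1 lateral library and 37 reached 10 there, 32 of them in the S-type and 13 in the L-type library, with 8 in both. In Mulai, 51 of the 324 had a lateral read and 2 reached 10, both in the S-type library. A scaled count of 10 took fewer reads in either IR29 lateral library than in either Mulai lateral library. The counts of 37 and 2 are therefore not like for like, and the cause of their difference was not tested. They were also not set against the share of the whole set that reached 10 in a lateral library. In the opposite arrangement, 132 of the 19963 loci had at least 10 in IR29 nodal roots and no read in either IR29 lateral library. Of these, 94 had at least 10 in Mulai nodal roots too. In Mulai, 40 of the 19963 had at least 10 in nodal roots and no read in either lateral library, and 17 of these had at least 10 in IR29 nodal roots. The IR29 lateral libraries held 4083173 (S-type) and 3891153 reads (L-type), against 6246649 and 5631504 in Mulai. A locus can thus be left unread in both laterals more readily in IR29. The cause of the difference between the counts of 132 and 40 was not tested.

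**Figure D3:**
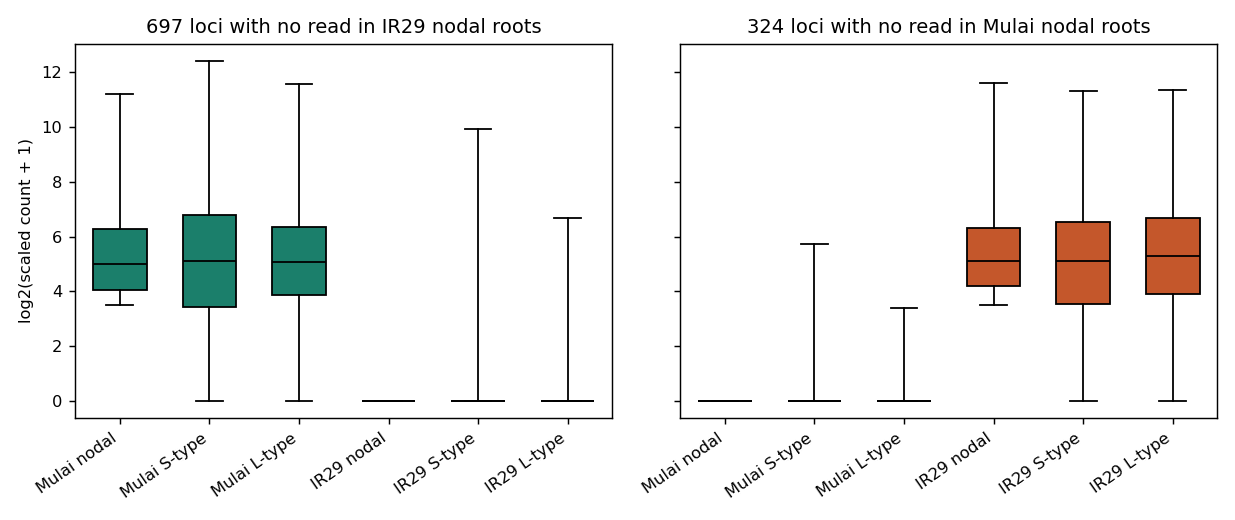
Levels in all 6 libraries, as log2(scaled count + 1), of the 697 loci with no read in IR29 nodal roots (left) and the 324 with no read in Mulai nodal roots (right). Boxes give the quartiles and the median and whiskers run from the lowest to the highest locus. The cultivar that lacks reads in nodal roots has its median at 0 in both laterals too, and the other cultivar keeps similar medians in its 3 root types.

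By a rule for naming loci, 4 are given by identifier. In each direction they are the locus with the largest fold among those with at least 10 reads in both nodal libraries and a mean of at least 100, and the unread locus with the highest value in the other cultivar. They were picked as extremes, so that their nodal folds are a description.

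XLOC_017347 had a nodal scaled count of 7.21 (12 reads) in Mulai and 243 (211 reads) in IR29. Nodal roots were thus 33.7-fold higher in IR29 (95% counting interval 18.9 to 66.3). In L-type roots it had 253 in Mulai and 749 in IR29, and in S-type roots 1078 and 5636. IR29 was higher in every root type, and within each cultivar nodal roots had the lowest level.

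XLOC_015356 had 541 (900 reads) in Mulai nodal roots and 18.4 (16 reads) in IR29 nodal roots, 29.3-fold lower in IR29 (18.0 to 51.5). L-type roots had 312 in Mulai and 62.1 in IR29, and S-type roots 245 and 21.1. IR29 was lower in every root type, at a locus picked for its nodal difference. Of the 2752 loci at least 2-fold lower in IR29 nodal roots, 1193 (43.4%) were so in both laterals too.

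XLOC_034536 had 3151 (2733 reads) in IR29 nodal roots and no read in Mulai nodal roots, 1747-fold higher in IR29 against a floor of 3 reads. The lower end of the exact 95% counting interval of this ratio was 1420. The IR29 laterals had 1774 (S-type) and 1565 (L-type). Mulai had 1 read in S-type and none in L-type roots.

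XLOC_002539 had 2330 (3876 reads) in Mulai nodal roots and no read in any IR29 library, and was 674-fold lower in IR29 nodal roots against the same floor, with 548 as the lower end of the counting interval. Mulai laterals had 5431 (S-type) and 3026 (L-type). Both unread loci differed in the same direction in every root type, which their choice by nodal values made likely. Of all loci unread in Mulai nodal roots, 297 of 324 passed 2-fold in both laterals in the nodal direction. For those unread in IR29 nodal roots it was 605 of 697.

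**Figure D4:**
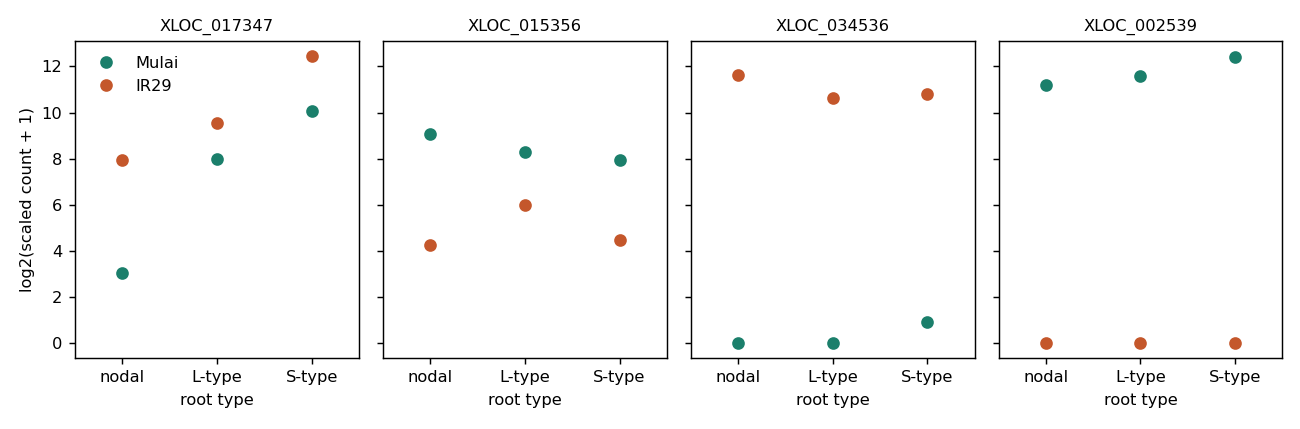
Levels of the 4 named loci as log2(scaled count + 1) (vertical axis) by root type (horizontal axis), 1 point per library. At XLOC_017347 and XLOC_015356 both cultivars have reads in all root types, and at XLOC_034536 and XLOC_002539 1 cultivar stays at or near 0.

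The extremes among loci read in both libraries lay at few reads on the low side. The largest fold in favour of IR29, 11.87 on the log2 scale, belonged to a locus with 5994 (5199 reads) in IR29 nodal roots and 1 read in Mulai nodal roots, a ratio of 9977 (counting interval 1789 to 393944). It had 51.1 in IR29 S-type and 38.6 in IR29 L-type roots and no read in Mulai laterals, so that its level was high in a single library. The largest fold in favour of Mulai, -8.22, belonged to a locus with 1332 in Mulai and 3 reads in IR29 nodal roots, a ratio of 385 (132 to 1869). This locus was also high in Mulai S-type (6895) and L-type roots (4606), and had no read in IR29 S-type and 1.17 units in IR29 L-type roots.

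The cultivar folds of nodal roots were next set beside those of the lateral pairs, which share no library with the nodal pair or with each other. They share the cultivars, the scaling procedure and the 2 earlier sets of records. Of the 1563 loci at least 2-fold higher in IR29 nodal roots, 936 (59.9%) were so in S-type roots, against 13.9% of the whole set, and 972 (62.2%) in L-type roots, against 14.4%. Taken from the other side these were 33.8% of the 2771 S-type loci and 33.8% of the 2878 L-type loci. Of the 2752 lower loci, 1378 (50.1%) were at least 2-fold lower in S-type roots, against 14.1% of the set, and 2105 (76.5%) in L-type roots, against 25.5%. These were 49.0% of the 2810 S-type and 41.3% of the 5097 L-type loci. All 4 shares lay above those of the whole set.

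In both lateral pairs at once, 719 of the higher loci (46.0%, against 5.4% of the set) and 1193 of the lower loci (43.4%, against 8.78%) passed 2-fold in the nodal direction. They were 66.6% of the 1079 and 68.1% of the 1752 loci that passed in both laterals. With 4-fold in nodal roots, 514 of 697 (73.7%) and 895 of 1298 (69.0%) passed 2-fold in both. Of these 697 and 1298 loci, 324 and 697 had no read in 1 nodal library, so that their fold depends on the added 1. At such unread loci the shares were 297 of 324 (91.7%) and 605 of 697 (86.8%), against 29.4% and 59.3% of all loci unread in 1 nodal library. Their nodal direction was fixed by the unread library, and each entered the set only through the other cultivar, so that these shares are a description. At 4-fold loci read in both nodal libraries they were 217 of 373 (58.2%) and 290 of 601 (48.3%). At 2-fold, loci read in both nodal libraries had 422 of 1239 (34.1%, against 4.11% of such loci) and 588 of 2055 (28.6%, against 6.06%). Among loci with at least 10 reads in both nodal libraries the 2-fold shares were smaller. They were 274 of 915 (29.9%, against 3.48% of such loci) and 272 of 1140 (23.9%, against 4.58%).

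Other nodal differences were not seen in laterals. Within 2-fold in both lateral pairs were 256 of the higher loci (16.4%) and 332 of the lower loci (12.1%), against 50.2% of the whole set. A locus with no read in any lateral library also counts as within 2-fold, and both groups include such loci. They were not separated from loci read at similar levels in the laterals of both cultivars. These counts therefore do not show that the cultivars had similar lateral levels at every such locus. Some loci went the opposite way by at least 2-fold. Among the higher loci this held for 64 in S-type roots (4.10%, against 14.1% of the whole set) and 131 in L-type roots (8.38%, against 25.5%). Among the lower loci it held for 296 (10.8%, against 13.9%) and 63 (2.29%, against 14.4%). All 4 shares lay below those of the whole set. In both laterals at once, 22 of the 1563 higher loci did, against 8.78% of the whole set, and 24 of the 2752 lower loci, against 5.4%. With 1 library per cultivar and root type, a nodal difference without a lateral counterpart cannot be told from variation of single libraries.

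Across the 19963 loci the nodal fold correlated with the S-type fold at r = 0.73 and with the L-type fold at r = 0.75. Without the loci unread in 1 nodal library, r was 0.45 and 0.57 over the remaining 18942. Over the 14271 loci with at least 10 reads in all 6 libraries the values were r = 0.31 and r = 0.47. Both restrictions also remove loci with a large cultivar difference, so that a lower r was likely beforehand. These are correlations across loci, which are not independent replicates, and no p is given.

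**Figure D5:**
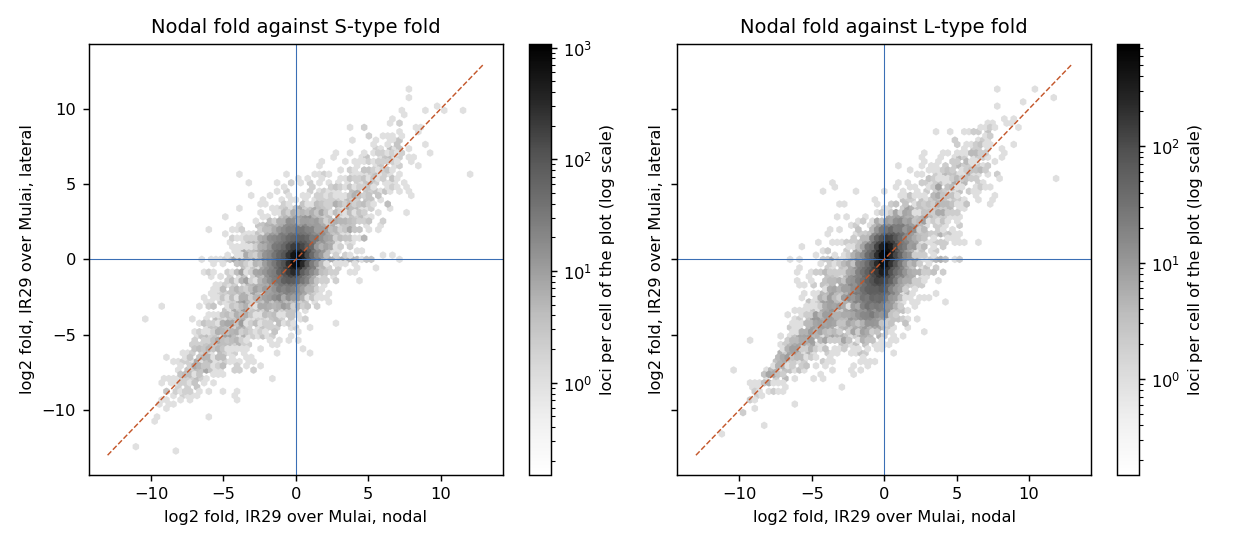
The log2 fold of IR29 over Mulai in S-type (left) and L-type roots (right) against that in nodal roots, for 19963 loci, with shading for the number of loci on a log scale and a dashed line where both are equal. A dense core sits near 0 and arms follow the dashed line in both directions, with r = 0.73 for S-type and r = 0.75 for L-type roots. Over the 18942 loci read in both nodal libraries, r was 0.45 and 0.57.

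Whether single loci differ between cultivars in nodal roots otherwise than in laterals was tested with limma. The contrast was the nodal fold minus the mean of the S-type and L-type folds, fitted over the 20316 loci that reached 10 in 2 or more of the 6 libraries. No locus passed (0 of 20316, 0%, adjusted p under 0.05), and 259 had an unadjusted p under 0.05, where 1016 would by chance. On the recovered reads edgeR also called 0, and 226 loci had an unadjusted p under 0.05 there. DESeq2 called 5, all with a higher fold in nodal roots. The model leaves 1 residual degree of freedom, the difference of the cultivar fold between the lateral types, and a wide lateral difference can hide a nodal one. The 1016 expected by chance presume that this difference holds noise alone. XLOC_017347 had a contrast of 2.92 ± 0.65 on the log2 scale (SE, adjusted p = 0.9999, limma). This locus was picked for its nodal fold, which is a part of the contrast, so that a large contrast was likely beforehand. A p that misses the threshold does not show that the folds were alike.

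By size alone, the nodal fold exceeded the mean lateral fold by at least 2 log2 units at 523 loci (2.62%) and fell short of it by as much at 404 (2.02%). The balance turned with the lateral type. Against the S-type fold alone 594 were higher and 1207 lower, and against the L-type fold alone 1469 were higher and 480 lower. Over the 14271 loci with at least 10 reads in all 6 libraries, 86 and 79 did. In the same loci the S-type fold departed from the mean of the other pairs by that much at 637 (4.46%) and the L-type fold at 705 (4.94%), against 165 (1.16%) for the nodal fold. These departures share the same 6 libraries and were not tested against each other.

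The nodal pair also lay closer together than the lateral pairs at equal depth. With every library thinned to 3891153 reads, the median absolute log2 fold was 0.40 for the nodal, 0.55 for the S-type and 0.81 for the L-type pair, each over the loci that reached 10 in its own pair. Past 2-fold were 22.3%, 30.4% and 41.8% of loci. For loci with a mean count of 200 to 500, the spread was 0.37, 0.53 and 0.80 log2 units in unthinned reads. Over the 19963 loci, the IR29 nodal library stood nearer to the Mulai nodal library (median absolute log2 difference 0.39) than to the IR29 L-type (0.77) or S-type library (0.90). The Mulai nodal library stood at 0.43 from the Mulai L-type and 0.80 from the Mulai S-type library. By the share of loci past 2-fold, however, it differed from the Mulai L-type library at 20.2% of loci, slightly fewer than the 21.6% at which the nodal libraries of the cultivars differed. With 1 library per cultivar and root type, the order of these values was not tested.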

How the data were processed

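The authors deposited 1 table of 38042 loci with a signal per locus and library, which they had made from fragment counts by multiplying each library with its own factor. The values show this: 100% of values above 0 were whole multiples of 1 step (tolerance 0.1 of a read), and division by the step recovered whole reads. Per the submitters' processing notes, Cuffdiff 2.2.1, Cufflinks 2.2.1, TopHat2 2.0.11, Bowtie and Trimmomatic 0.32 were used with IRGSP-1.0. No source used here gives their options, the annotation or the handling of strand and shared reads, and near-identical or overlapping loci are uncertain. A further 24 columns (variances and status) were left aside.

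Loci that reached 10 in 1 or both nodal libraries were described on log2(value + 1), which understates folds of low loci. Counting intervals are exact 95% binomial (scipy 1.17.1). Intervals and the floor of 3 reads cover counting error only. The difference between nodal and lateral folds was fitted with limma 3.58.1 (R 4.3.3, variance trend, Benjamini-Hochberg, threshold 0.05). As alternatives, edgeR 4.0.16 and DESeq2 1.42.0 were run on recovered reads. The limma fit was also run on simulated counts. Their means held the same cultivar fold in both lateral types, so that they do not show what the contrast can find where those folds differ. No label says that libraries are separate plants, so that p-values do not measure the spread between plants. The spread they use holds library noise and the difference of the cultivar fold between the lateral types. Other alternatives were pseudocounts of 0.5 and 5, a minimum of 50 or none, TMM, median ratio and total read scaling, and thinned reads. The members, lists and rules were chosen with earlier results of these data known. At most 2 loci in each direction are named, by the rule given with them, because identifiers are not paired with gene names.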

Additional observations from a re-analysis of the deposited data

How the results depend on the processing

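Of 88 values under alternatives, 63 stayed within 1.5 times the count reported, or within the binomial interval of a median. Scaling, pseudocount and depth moved no count of nodal loci past 2-fold by over 1.5 times, and between 34.0% and 39.0% of these loci were higher in IR29 under every alternative run. A minimum of 50 in place of 10 kept 13962 loci and gave 768 higher and 1273 lower, 648 and 1016 of them read in both, with 360 and 569 shared with both laterals and 257 and 120 unread in IR29 and in Mulai. No minimum (26960 loci) gave 3080 higher and 4821 lower. With 3 or fewer reads in place of none, 1075 loci counted as unread in IR29. The median fold of loci read in both (-0.013) was 0.016 with the minimum of 50 and -0.061 with total read scaling, and over all members (-0.025) 0.011, -0.073 with total reads and -0.059 with no minimum. The sign of the median therefore depends on the setting. For the size rule (523 higher, 404 lower), the S-type fold alone gave 594 and 1207, and the L-type fold alone 1469 and 480, so that the balance turned. The minimum of 50 gave 235 and 117, a pseudocount of 5 gave 210 and 191, and 10 reads in all 6 libraries gave 86 and 79. DESeq2 called 5 loci where limma called 0. The cause of these shifts was not tested beyond the smaller sets that the stricter minimums leave. Leaving out a library leaves limma's contrast no residual degree of freedom, or no contrast, and was not run as a test. No paired analysis was possible because the groups share fewer than 2 replicate numbers; this concerns replicate numbers only, as the contrast already pairs the cultivars within each root type.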

Other observations

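The identifiers of the table run in number, and what orders them is not stated. In that order among the 19963 loci, a locus with no read in IR29 nodal roots was followed directly by another such locus in 96 of 697 cases (13.8%), against 3.49% of all loci. For no read in Mulai nodal roots this was 51 of 324 (15.7%), against 1.62%. The longest runs held 4 and 6 loci. This was noticed after the values were seen and was not tested.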
